A study of Mus musculus with 6 samples.

Results

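The genes described here are 10 genes of the megakaryocyte and platelet programme: the surface glycoprotein genes Gp1bb, Gp5 and Gp9, the granule genes Pf4, Thbs1, Selp and Treml1, the granule release and cytoskeleton genes Rab27b and Plek, and the transcription factor gene Nfe2. They were chosen by gene symbol, with earlier results of these data known, and all 10 were found among the 29872 symbols of the deposited table. The table holds bulk RNA sequencing of 3 mouse libraries with the label CML, for chronic myeloid leukaemia, and 3 with the label WT, for wild type. All 6 came from untreated C57BL/6 bone marrow, as ex vivo expanded cells of the gate that takes Sca1, cKit and CD150 positive cells without lineage markers. The labels name neither the allele or transgene of the CML cells nor the animals or cultures behind each library. The libraries are called CML 1 to CML 3 and WT 1 to WT 3 after the replicate numbers in their titles. A p-value covers only how far these libraries differ among themselves, which may be technical variation.

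Megakaryocytes are the large marrow cells that shed platelets. Their genes encode adhesion receptors for damaged vessel walls, the cargo of alpha granules, and the machinery that docks and releases granules. In mouse marrow some of these genes are already transcribed in stem cells. CD150, part of the gate used here, marks stem cells, among them those biased towards platelets. Several of the genes are not restricted to this lineage: RAB27B also serves mast cell granules, pleckstrin is abundant in leukocytes, and P-selectin and thrombospondin are made by endothelium as well.

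Of the 10 genes, 9 had enough counts to be tested, and each of these held at least 11 counts in every library. Thbs1 and Rab27b were higher and Plek was lower in CML, and the other 6 did not pass the threshold (edgeR quasi-likelihood test, adjusted p under 0.05 over 16221 genes). Over all tested genes 17.4% passed, 10.2% higher and 7.20% lower in CML, so 3 of 9 stands above that share in a set too small to be read further. The median log2 fold change of the 9 genes was 0.15, against -0.004 over all tested genes. The genes therefore did not move as a block: the granule genes Thbs1 and Pf4 lay on opposite sides. Levels are given as CPM (library-size-scaled counts, as edgeR's CPM with TMM scaling), and fold changes as log2 of CML over WT.

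**Figure D1:**
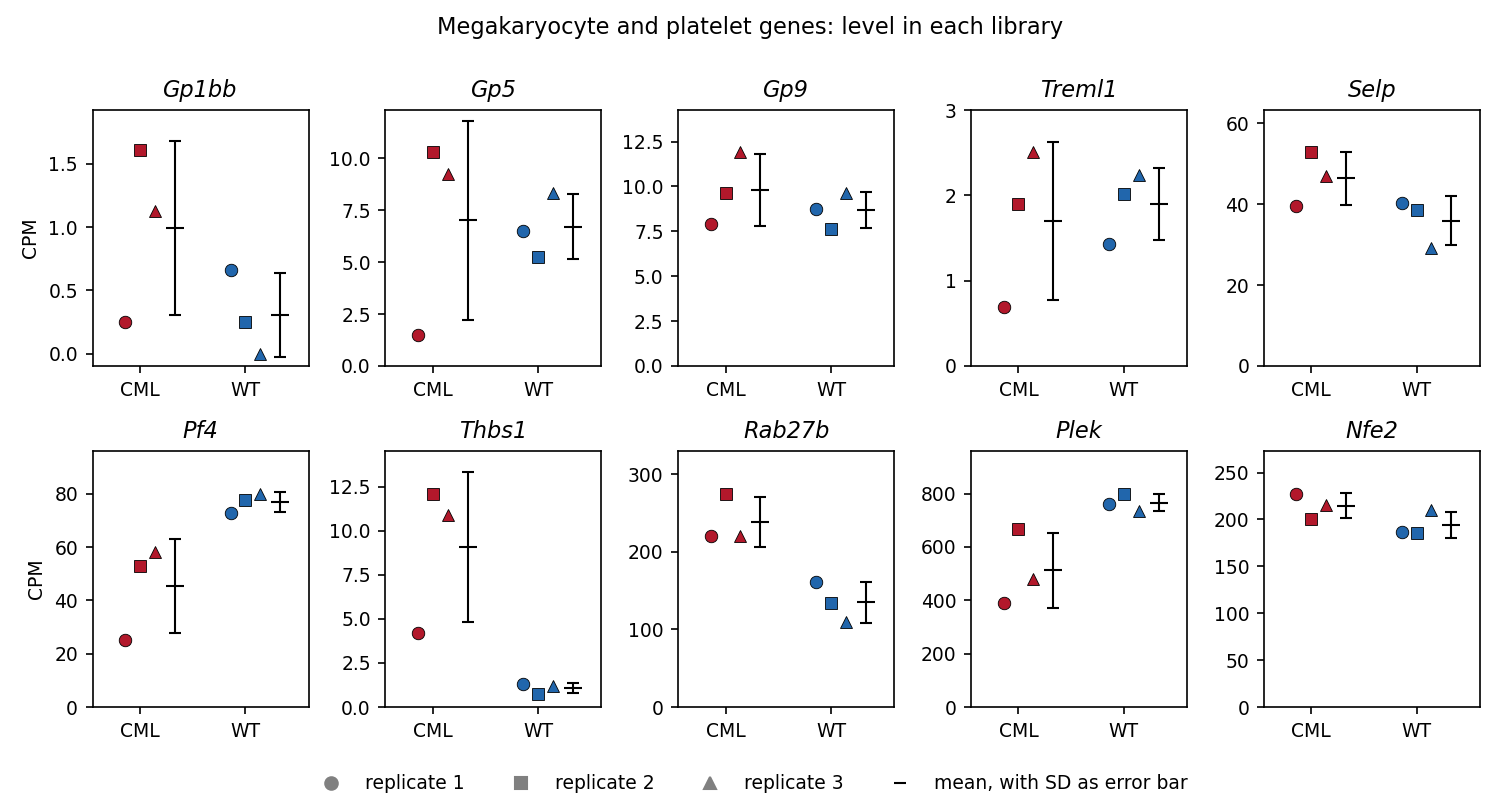
Level of each of the 10 genes (y axis, CPM, a separate scale per gene) in the 3 CML and 3 WT libraries; symbols mark the replicate, the dash is the group mean and the bar its SD (n = 3). Thbs1 and Rab27b lie above WT in every CML library, Pf4 and Plek below, and the other genes overlap.

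Of the surface glycoproteins, GP9, GP5 and GP1B-beta join GP1B-alpha in the receptor with which platelets catch von Willebrand factor. Gp9 (chromosome 6, 87778072 to 87779768, GRCm38) stood at 7.91, 9.63 and 11.9 CPM in CML 1, CML 2 and CML 3, against 8.72, 7.64 and 9.65 CPM in WT 1, WT 2 and WT 3. The groups overlapped, with a log2 fold change of 0.18 (95% interval -0.24 to 0.60, adjusted p = 0.578, edgeR). Gp5 (chromosome 16, 30307685 to 30310779) stood at 1.51, 10.3 and 9.26 CPM in CML, against 6.51, 5.24 and 8.35 CPM in WT. CML 1 lay below each WT library and CML 2 and CML 3 above them, so the groups overlapped and the interval of the log2 fold change was wide, from -1.52 to 1.64 around 0.06 (adjusted p = 0.965, edgeR). Its sign depended on single libraries: without CML 1 the value was 0.54 (adjusted p = 0.118), without CML 2 -0.32 (0.849), without CML 3 -0.20 (0.912) and without WT 2 -0.09 (0.964).

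Gp1bb (chromosome 16, 18620317 to 18622403) had too few counts to be tested. It held 3.88, 21.6 and 18.2 estimated counts in CML 1, CML 2 and CML 3, against 11, 4 and 0.37 in WT. In the annotation, 91.1% of its exon bases also belong to Sept5 on the same strand (Septin5 in the table), so its counts depend on how shared reads were divided. Septin5 held 11.2, 11.1 and 0.14 estimated counts in CML, against 0, 0 and 9.63 in WT. Added together, the pair held 15.1, 32.7 and 18.3 counts in CML and 11, 4 and 10 in WT. Gp1ba, the remaining chain of the receptor, stood at 1.82, 4.23 and 3.07 CPM in CML, against 1.55, 1.39 and 1.62 CPM in WT. Every CML library lay above every WT library, as for 18.5% of all tested genes (35.0% were separated in either direction), but the log2 fold change of 0.99 did not pass (adjusted p = 0.0594, SE 0.34, edgeR). It passed without CML 1 (adjusted p = 0.0124) and when scaled by library totals (0.0391).

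PF4 (CXCL4) is the chemokine that megakaryocytes pack into alpha granules and a marker by which the lineage is often traced. Pf4 (chromosome 5, 90772435 to 90773383) stood at 25.4, 53.0 and 58.1 CPM in CML, against 72.9, 77.9 and 80.2 CPM in WT. Every CML library lay below every WT library, as for 16.5% of all tested genes. The spread within CML was nearly 5 times that within WT: the means were 45.5 ± 17.6 CPM in CML, against 77.0 ± 3.72 CPM in WT (SD, n = 3). The log2 fold change of -0.76 did not pass (adjusted p = 0.108, 95% interval -1.41 to -0.11, SE 0.28, edgeR). It passed without CML 1, where it was smaller, at -0.47 (adjusted p = 0.0196), and with DESeq2 (0.00515). Ppbp, the neighbouring platelet chemokine gene, stood at 1.44, 4.52 and 5.45 CPM in CML, against 5.62, 6.00 and 4.17 CPM in WT, and the groups overlapped (log2 fold change -0.47, adjusted p = 0.468).

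The bases before the start sites of Pf4, Gp9 and Gp5 are shown. These genes encode proteins typical of megakaryocytes and platelets, and Pf4 separated the groups where Gp9 and Gp5 did not. Gp1bb and Treml1 encode such proteins too, but the bases before their starts held no match to the motifs searched for and are not shown. Each line gives the 250 bases before the start of the gene in RefSeq (GRCm38.p6), 5′ to 3′ on the coding strand, at chr5:90772185-90772434 (plus strand) for Pf4, chr6:87777820-87778069 (plus strand) for Gp9 and chr16:30310782-30311031 (minus strand) for Gp5. Capitals mark the letters of 3 short motifs, found on either strand. The letters GGAAGT are the core of sites bound by ETS family factors. The letters GATAAG are a form of the sites of the factor family of Gata1. The letters TGTGGT are those of the RUNX family.
Pf4: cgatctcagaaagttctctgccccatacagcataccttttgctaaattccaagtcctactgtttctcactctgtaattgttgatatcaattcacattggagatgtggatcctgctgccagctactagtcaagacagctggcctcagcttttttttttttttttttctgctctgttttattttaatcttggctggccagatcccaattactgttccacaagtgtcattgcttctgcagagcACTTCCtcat
Gp9: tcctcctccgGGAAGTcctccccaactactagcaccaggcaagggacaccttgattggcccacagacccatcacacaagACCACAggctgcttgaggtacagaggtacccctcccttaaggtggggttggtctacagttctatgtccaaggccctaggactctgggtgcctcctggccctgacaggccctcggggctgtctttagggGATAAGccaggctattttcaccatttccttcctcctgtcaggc
Gp5: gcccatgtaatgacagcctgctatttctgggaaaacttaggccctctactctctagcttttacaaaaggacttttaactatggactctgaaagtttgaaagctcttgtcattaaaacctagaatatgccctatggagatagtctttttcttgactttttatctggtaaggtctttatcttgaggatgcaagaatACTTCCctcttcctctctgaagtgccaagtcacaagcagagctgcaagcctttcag

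A window was found for 7 of the 10 genes, but not for Thbs1, Rab27b or Nfe2. Thbs1 and Rab27b, the genes higher in CML, were therefore not searched, and Rab27b is also a reported NF-E2 target. GGAAGT was in 3 of the 7 (Pf4, Gp9 and Gp5) and in 19.7% of the 32851 windows of the whole table. GATAAG was in Gp9 alone of the 7, at positions -43 to -38 from the start, and in 6.55% of all windows. TGTGGT was in Gp9 alone of the 7, and in 14.05% of all windows. TGACTCA, the letters that AP-1 sites and the longer NF-E2 sites share, was in 0 of the 7, and in 4.46% of all windows. Only these exact letters were searched, so other forms of such sites, in Gp5 or elsewhere, were not counted. These matches describe the letters of the windows and say nothing of which factors were bound.

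THBS1 (thrombospondin) is an alpha granule glycoprotein that binds CD36 and CD47. Thbs1 (chromosome 2, 118111876 to 118127133) stood at 4.21, 12.1 and 10.9 CPM in CML, against 1.31, 0.76 and 1.18 CPM in WT. It had the largest change of the 9 tested genes, with a log2 fold change of 3.05 (adjusted p = 8.71e-04, SE 0.42, edgeR), from 407 counts over the CML libraries and 53 over the WT libraries. The call held without each library in turn, with adjusted p from 1.40e-06 to 0.0120. Thbs2, of the same family, was at 2.05 ± 0.26 CPM in CML, against 0.10 ± 0.07 CPM in WT (SD, n = 3), a log2 fold change of 4.22 (adjusted p = 8.27e-05). Cd36, chosen after its values were seen, was scarce, at 0.39 ± 0.22 CPM in CML, against 1.52 ± 0.33 CPM in WT. These levels rest on 18 counts over the CML libraries and 74 over the WT libraries. Cd36 was lower in CML (log2 fold change -1.92, adjusted p = 0.0104, edgeR), and missed the threshold without CML 3 (0.0544) or WT 1 (0.0518).

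P-selectin lies in the alpha granule membrane and, once on the surface, holds leukocytes through PSGL-1. Selp (chromosome 1, 164115264 to 164150026) stood at 39.7, 52.8 and 46.9 CPM in CML, against 40.2, 38.6 and 29.1 CPM in WT. CML 1 lay within the WT range and the other CML libraries above it, and the log2 fold change of 0.37 did not pass (adjusted p = 0.113, SE 0.15, edgeR); scaled by library totals it did (0.0409). Selplg, which encodes PSGL-1, was higher in CML, at 61.0 ± 11.8 CPM against 39.96 ± 7.003 CPM in WT (log2 fold change 0.61, adjusted p = 0.0252). The Selplg call was lost without CML 2 (0.0867), CML 3 (0.0956), WT 1 (0.0963) or WT 2 (0.116).

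TREML1 is a receptor stored in platelet alpha granules. Treml1 (chromosome 17, 48359916 to 48367176) stood at 0.69, 1.90 and 2.50 CPM in CML, against 1.43, 2.02 and 2.24 CPM in WT. CML 1 was the lowest and CML 3 the highest of the 6, so the groups overlapped (log2 fold change -0.16, 95% interval -1.06 to 0.73, adjusted p = 0.829, edgeR). Without CML 1 the value was 0.21 (adjusted p = 0.713). Of its relatives, Treml2 was at 131 ± 14.8 CPM in CML, against 96.4 ± 4.52 CPM in WT (log2 fold change 0.44, adjusted p = 0.0210). The Treml2 call was lost without CML 1 (0.0698), CML 3 (0.0599), WT 1 (0.0632) or WT 2 (0.116). Trem3 was at 1.49 ± 0.07 CPM in CML, against 0.53 ± 0.17 CPM in WT (log2 fold change 1.47, adjusted p = 0.0175; 0.0665 without CML 3, 0.105 without WT 2 and 0.0567 with DESeq2). Trem1 did not pass, at 1.93 ± 0.91 CPM in CML, against 3.17 ± 1.79 CPM in WT (adjusted p = 0.326).

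RAB27B is the small GTPase that brings secretory granules to the plasma membrane, dense granules of platelets included. Rab27b (chromosome 18, 69979131 to 70141605) stood at 220.3, 275 and 220.02 CPM in CML, against 162, 134 and 109 CPM in WT. Every CML library lay above every WT library, with a log2 fold change of 0.82 (adjusted p = 0.00259, SE 0.15, edgeR), and the call held without each library in turn, at adjusted p up to 0.0174. Its sister gene Rab27a was higher to a similar extent, at 104 ± 7.14 CPM in CML, against 61.6 ± 4.73 CPM in WT (log2 fold change 0.76, adjusted p = 6.26e-04). Among the effectors that RAB27 proteins recruit, 3 of 6 tested were higher and 0 lower in CML, against 10.2% and 7.20% of all tested genes. Sytl3 was at 4.71, 16.9 and 9.89 CPM in CML, against 0.18, 0.32 and 1.12 CPM in WT (log2 fold change 4.26, adjusted p = 0.00882), and missed the threshold without WT 1 (0.0694) or WT 2 (0.0635) and with no low-count filter (0.0529). Sytl2 had a log2 fold change of 1.73 (adjusted p = 0.0272) and passed in only 1 of the 6 fits that left out a library, with adjusted p up to 0.141. Unc13d, which primes granules for fusion, had a log2 fold change of 0.42 (adjusted p = 0.0340) and passed in 2 of those 6 fits, with adjusted p up to 0.166.

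PLEK (pleckstrin) is the main substrate of protein kinase C in platelets. Plek (chromosome 11, 16971206 to 17052381) stood at 389, 668 and 480.3 CPM in CML, against 762, 800.3 and 737 CPM in WT. Every CML library lay below every WT library, and the log2 fold change of -0.58 passed narrowly (adjusted p = 0.0364, SE 0.17, edgeR). The call was lost without CML 1 (0.0850), CML 3 (0.129), WT 1 (0.0927), WT 2 (0.122) or WT 3 (0.0982), and when scaled by library totals (0.0659). Without CML 2 it was firmer, at -0.82 (0.00287).

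NFE2 is the p45 subunit of NF-E2, the factor that mouse megakaryocytes need to release platelets. Nfe2 (chromosome 15, 103248212 to 103258403) stood at 228, 201 and 215 CPM in CML, against 186, 186 and 209.6 CPM in WT. It was the steadiest of the 10 genes across the CML libraries, and the groups overlapped (log2 fold change 0.15, 95% interval -0.10 to 0.39, adjusted p = 0.410, edgeR). Its small MAF partners and the BACH factors that compete for them did not pass either, in 0 of 5 cases. Mafg was at 59.9 ± 7.61 CPM in CML, against 59.9 ± 6.27 CPM in WT, and Mafk at 28.4 ± 4.44 CPM in CML, against 22.1 ± 4.51 CPM in WT (SD, n = 3). Maff was the scarcest, at 2.09 ± 0.28 CPM in CML, against 2.15 ± 0.49 CPM in WT. Bach1 was at 91.7 ± 8.75 CPM in CML, against 99.4 ± 1.39 CPM in WT, and Bach2 at 5.87 ± 2.41 CPM in CML, against 8.64 ± 1.41 CPM in WT. Mafk passed without WT 3 (log2 fold change 0.53, adjusted p = 0.0367). The related factors Nfe2l1, Nfe2l2 and Nfe2l3 did not pass (adjusted p = 0.0750, 0.879 and 0.668), though Nfe2l1 did without WT 3 (0.0304) and when scaled by library totals (0.0271). Of 7 reported NF-E2 targets 5 were tested, of which 0 were lower and, against 10.2% of all tested genes, 2 (40%) were higher in CML. These were Rab27b and Tbxas1, the thromboxane synthase gene, which was at 67.9 ± 5.21 CPM in CML, against 44.0 ± 1.03 CPM in WT (log2 fold change 0.63, adjusted p = 0.00234). Selp, Lims1 and Casp12 did not pass, and Tubb1 and Myl9 had too few counts to be tested. Without Rab27b and Selp, which are among the 10 genes, 1 of 3 tested targets was higher.

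Per kilobase of exon, Plek, Nfe2 and Pf4 led in both groups. Plek was at 114 ± 31.6 CPM per kilobase in CML and 171 ± 7.14 in WT (SD, n = 3), Nfe2 at 71.8 ± 4.49 in CML and 64.9 ± 4.54 in WT, and Pf4 at 63.1 ± 24.4 in CML and 107 ± 5.17 in WT. Pf4 thus stood above Nfe2 in every WT library, while the ranges of these genes overlapped in CML. Rab27b followed at 22.3 ± 2.97 CPM per kilobase in CML and 12.6 ± 2.44 in WT, then Gp9 at 11.1 ± 2.27 in CML and 9.84 ± 1.14 in WT, and Selp at 10.5 ± 1.49 in CML and 8.15 ± 1.36 in WT. Gp9 and Selp did not separate in either group. Gp5 was at 3.20 ± 2.19 in CML and 3.05 ± 0.71 in WT, and Treml1, Thbs1 and Gp1bb each averaged below 2 CPM per kilobase.

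CML 1 was the lowest CML library for 7 of the 9 tested genes, all but Rab27b and Nfe2. It was the lowest for 36.9% of all tested genes. Its level relative to the WT mean was 0.23 for Gp5, 0.33 for Pf4, 0.36 for Treml1 and 0.51 for Plek. The ratio was 0.91 for Gp9, 1.1 for Selp and 3.88 for Thbs1. For CML 3 the ratios of Gp5, Pf4, Treml1 and Plek were 1.38, 0.76, 1.32 and 0.63. CML 1 was not always the library apart: for Plek and Rab27b, CML 2 lay furthest from the other CML libraries. The range within CML, as highest over lowest library, was 6.83 for Gp5, against 1.59 within WT, and 1.13 for Nfe2, as within WT.

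**Figure D2:**
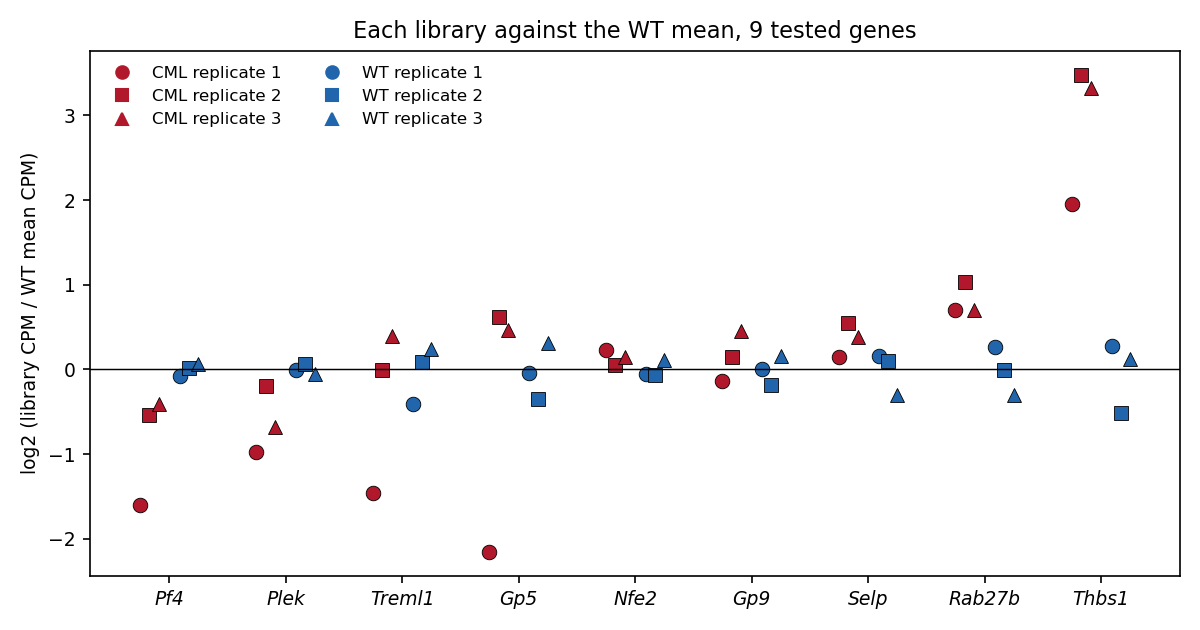
Level of the 9 tested genes in each library relative to the mean of the WT libraries (y axis, log2 scale), ordered by log2 fold change; red symbols are CML and blue symbols WT libraries. CML 1 (red circles) is the lowest CML library for 7 genes, while both other CML libraries lie above every WT library for Gp5.

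Among the other genes of the programme, 117 were listed by role, 106 were tested, and 23 were higher and 12 lower in CML, with a median log2 fold change of 0.07. That is 21.7% and 11.3% of those tested, against 10.2% and 7.20% of all tested genes. The lists were chosen with earlier results of these data known, so their shares are not an independent test. The higher count was 14 without CML 3 or without WT 2, when fewer genes passed in the whole table as well.

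Platelet receptor genes went both ways, with 5 of 21 tested genes higher and 5 lower in CML (median log2 fold change 0.08), or 23.8% each way. Itgb3, the beta chain of the fibrinogen receptor (chromosome 11, 104608000 to 104670476), was at 149, 219 and 187 CPM in CML, against 54.5, 54.9 and 69.2 CPM in WT (log2 fold change 1.64, adjusted p = 1.94e-05, SE 0.15). Its alpha chain Itga2b (CD41), chosen after its values were seen, lay on the other side, at 48.8, 66.2 and 83.1 CPM in CML, against 94.4, 94.2 and 106 CPM in WT (log2 fold change -0.57, adjusted p = 0.0360). The Itga2b call was lost without CML 1 (0.0624), CML 2 (0.0827), WT 1 (0.0861), WT 2 (0.0874) or WT 3 (0.112), and when scaled by library totals (0.0813). The nucleotide receptors P2ry1 and P2rx1, through which platelets sense ADP and ATP, were higher: P2ry1 had a log2 fold change of 1.76 (adjusted p = 6.69e-05) and P2rx1 one of 0.88 (adjusted p = 0.00108).

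Of 24 tested genes of granule cargo and release, 5 were higher and 2 lower in CML (median log2 fold change 0.15), or 20.8% and 8.33%. Those lower in CML were Mmrn1 and Timp3. Mmrn1, which encodes a factor V carrier of alpha granules, was at 15.0 ± 3.17 CPM in CML, against 76.8 ± 13.2 CPM in WT (log2 fold change -2.36, adjusted p = 2.93e-06), and Timp3 had a log2 fold change of -0.89 (adjusted p = 0.00277). Of those higher, Stx11 (log2 fold change 1.71, adjusted p = 2.37e-05) and Lyst (0.99, adjusted p = 6.76e-04) had the lowest adjusted p, and Vipas39, Unc13d and Slc18a2 made up the rest. Vwf, which encodes von Willebrand factor, was at 7.80 ± 1.57 CPM in CML, against 6.68 ± 0.996 CPM in WT and did not pass (adjusted p = 0.519).

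Among 16 tested cytoskeleton genes 2 were higher and 1 lower in CML (median log2 fold change -0.03), or 12.5% and 6.25%, near the 10.2% and 7.20% of all tested genes. Gsn, which encodes the actin-severing protein gelsolin, was at 60.2 ± 19.5 CPM in CML, against 11.9 ± 2.39 CPM in WT (log2 fold change 2.34, adjusted p = 2.34e-04). Myh10, the non-muscle myosin gene that falls silent as mouse megakaryocytes become polyploid, had a log2 fold change of -1.21 (adjusted p = 0.00496). Actn1 had a log2 fold change of 0.61 (adjusted p = 0.0375) and passed in only 1 of the 6 fits that left out a library. Myh9 did not pass (log2 fold change -0.34, adjusted p = 0.0735), but did without WT 3 (0.0203). Tubb1, the beta-tubulin of platelets, was at 0.49 ± 0.20 CPM in CML, against 0.10 ± 0.07 CPM in WT, too low to be tested.

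Signalling genes had 7 of 20 higher and 2 lower in CML (median log2 fold change 0.23), or 35% and 10%. Lcp2, the adaptor SLP-76, was at 199.9 ± 4.46 CPM in CML, against 116 ± 6.98 CPM in WT (log2 fold change 0.78, adjusted p = 3.31e-04). Gnaz, a G protein alpha subunit gene, was at 7.59 ± 3.25 CPM in CML, against 1.29 ± 0.16 CPM in WT (2.54, adjusted p = 3.59e-04). Pde5a, a cyclic GMP phosphodiesterase gene, was lower in CML (-0.99, adjusted p = 0.00241). Of 18 tested megakaryocyte transcription factor genes 4 were higher and 2 lower in CML (median log2 fold change 0.08), or 22.2% and 11.1%. Gata1, the factor shared by megakaryocytes, erythroid cells and mast cells, stood at 13.6, 47.8 and 29.7 CPM in CML, against 6.27, 4.42 and 6.60 CPM in WT (log2 fold change 2.39, adjusted p = 0.0209). It missed the threshold without CML 3 (0.0635), WT 1 (0.153), WT 2 (0.105) or WT 3 (0.0648), with limma-voom (0.0643) and with no low-count filter (0.0878). Runx1 had a log2 fold change of 0.61 (adjusted p = 0.00191) and Lmo2 of -0.68 (adjusted p = 0.00239). Ikzf2 had one of 0.46 (adjusted p = 0.0171), which missed the threshold without CML 2 (0.0647), CML 3 (0.0582) or WT 2 (0.0699).

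**Figure D3:**
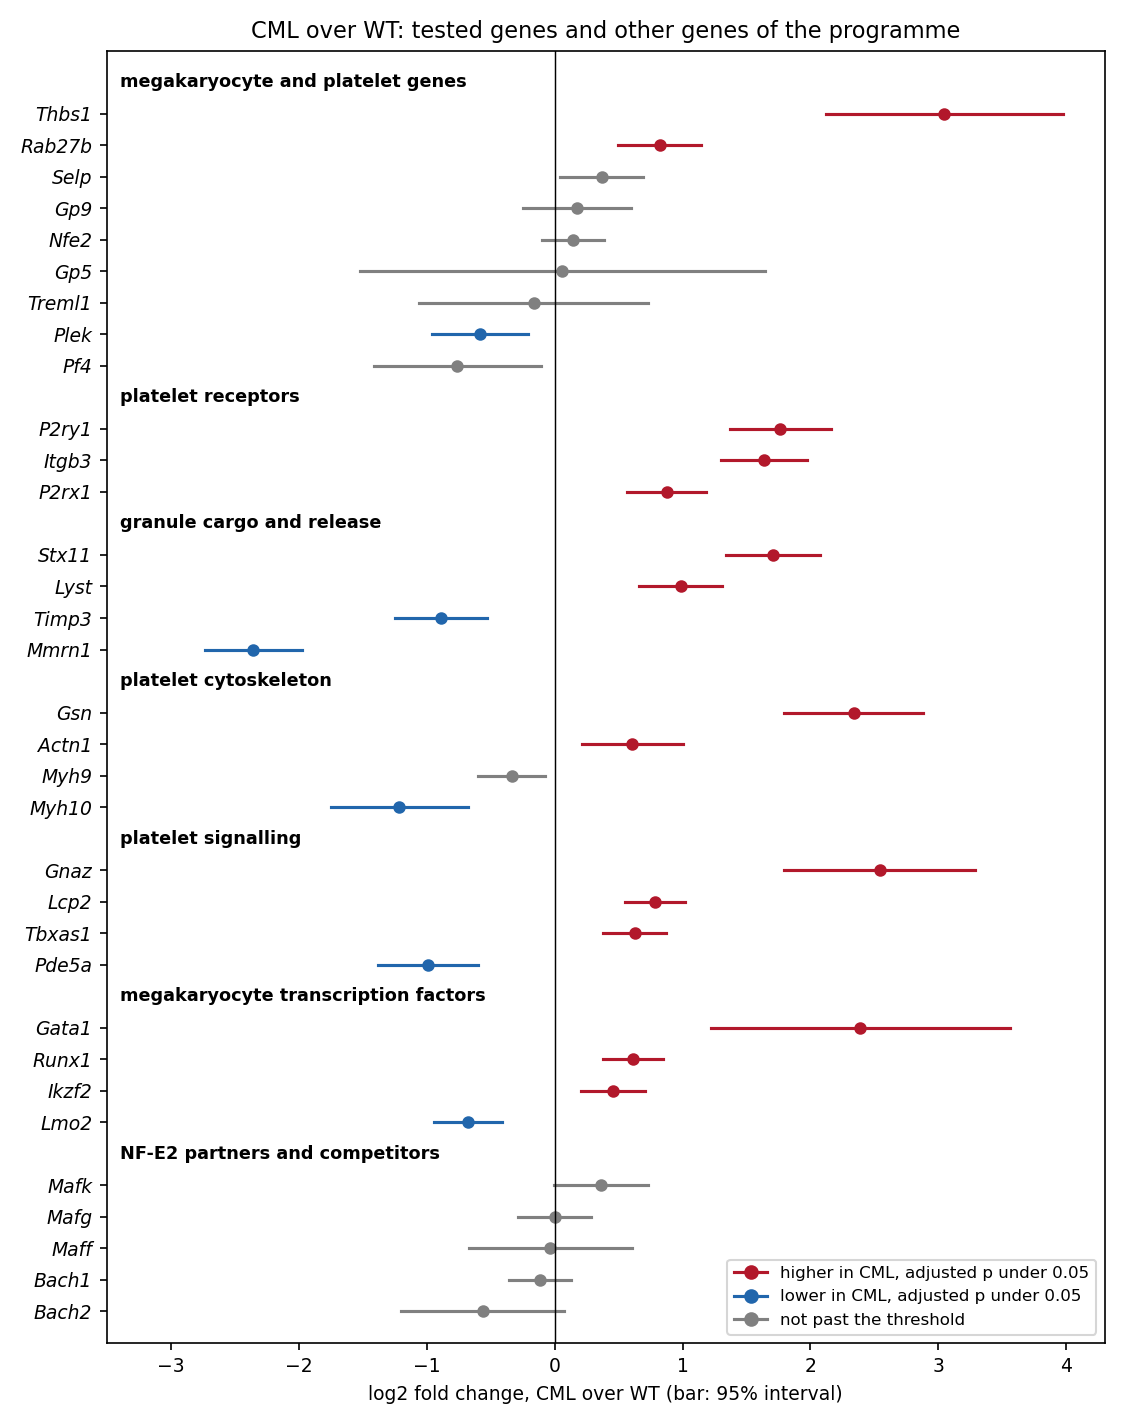
Log2 fold change of CML over WT (x axis) with its 95% interval. Shown are the 9 tested genes and selected other genes of the programme by role. Red marks genes higher and blue genes lower in CML at an adjusted p under 0.05, and grey the rest. Apart from the NF-E2 partners and competitors, the other genes were picked mainly for the lowest adjusted p in their list. The share in colour is therefore not that of the whole programme. Of all 106 tested other genes, 23 were higher and 12 lower in CML. Thbs1 at 3.05 has the largest change of the 9, Mmrn1 lies furthest below 0, and the 5 NF-E2 partners and competitors are all grey.

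Marker lists of cell types were read beside these results. In bulk libraries fewer cells of a type and less RNA per cell cannot be told apart. The counts of markers below stand against 10.2% higher and 7.20% lower in CML over all tested genes. The 10 megakaryocyte markers summed to 126 to 196 CPM in CML, against 276 to 299 CPM in WT. They include Gp1bb, Gp9 and Pf4 of the genes described here, so the sum partly repeats their values. Itga2b and Pf4 were among the largest, and Gp6 and Tubb1 were under 1 CPM in every library. Of 7 tested markers 2 were lower and 0 higher in CML. Of the other 5, Pf4 and Ppbp had log2 fold changes below 0 and Gp9, Gp1ba and Vwf above 0. Gp1bb, Gp6 and Tubb1 were too low to be tested, with means higher in CML. The 12 mast cell and basophil markers summed to 2331 to 8249 CPM in CML, against 159 to 355 CPM in WT, and 7 of 11 tested were higher in CML and 0 lower. Within CML that sum was smallest in CML 1 and largest in CML 2. Of the 9 tested genes, 4 had that order of the CML libraries (Thbs1, Selp, Plek and Gp5), as had 19.8% of all tested genes. Rab27b was also highest in CML 2, but CML 1 and CML 3 were nearly level at 220.3 and 220.02 CPM. The part of these markers' cells in the values of Rab27b, Thbs1 and Gata1 was not tested. The 10 monocyte and macrophage markers summed to 116 to 209 CPM in CML, against 23.3 to 34.4 CPM in WT (5 of 8 tested higher, 0 lower), with Cd14 under 1 CPM in every library. Their part in the values of Thbs1 and Plek was not tested either.

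The 8 endothelial markers summed to 151 to 183 CPM in CML, against 131 to 182 CPM in WT, nearly all of it from Pecam1 and Tie1. Of the other 6, Cdh5, Cldn5, Sele and Plvap were under 1 CPM in every library. Kdr was lower in CML, at 1.93 ± 0.95 CPM in CML, against 6.63 ± 0.88 CPM in WT (SD, n = 3, log2 fold change -1.77, adjusted p = 0.00179), and Emcn was at 1.14 ± 0.79 CPM in CML, against 2.92 ± 1.28 CPM in WT and did not pass (adjusted p = 0.0820). The part of endothelial RNA in the values of Selp and Thbs1 was not tested. The 12 erythroid markers summed to 25.0 to 97.9 CPM in CML, against 209 to 231 CPM in WT, mostly Hbb-bt and Hbb-bs, and of 6 tested these 2 were lower and Klf1 was higher in CML. The 11 neutrophil markers summed to 165 to 267 CPM in CML, against 131 to 259.9 CPM in WT, and 0 of 8 tested passed. Of the 8 lymphoid markers 7 were under 1 CPM in every library, all but Nkg7. Among 10 gate and stem cell genes 4 were lower in CML and 0 higher, against 7.20% and 10.2% of all tested genes. Slamf1, which encodes the CD150 of the gate, was one of them, at 14.2 ± 4.35 CPM in CML, against 24.7 ± 6.61 CPM in WT (log2 fold change -0.80, adjusted p = 0.0470), a call lost in 4 of the 6 fits that left out a library, with adjusted p up to 0.158. Kit, which encodes cKit, and Ly6a, which encodes Sca1, did not pass (adjusted p = 0.842 and 0.173).

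**Figure D4:**
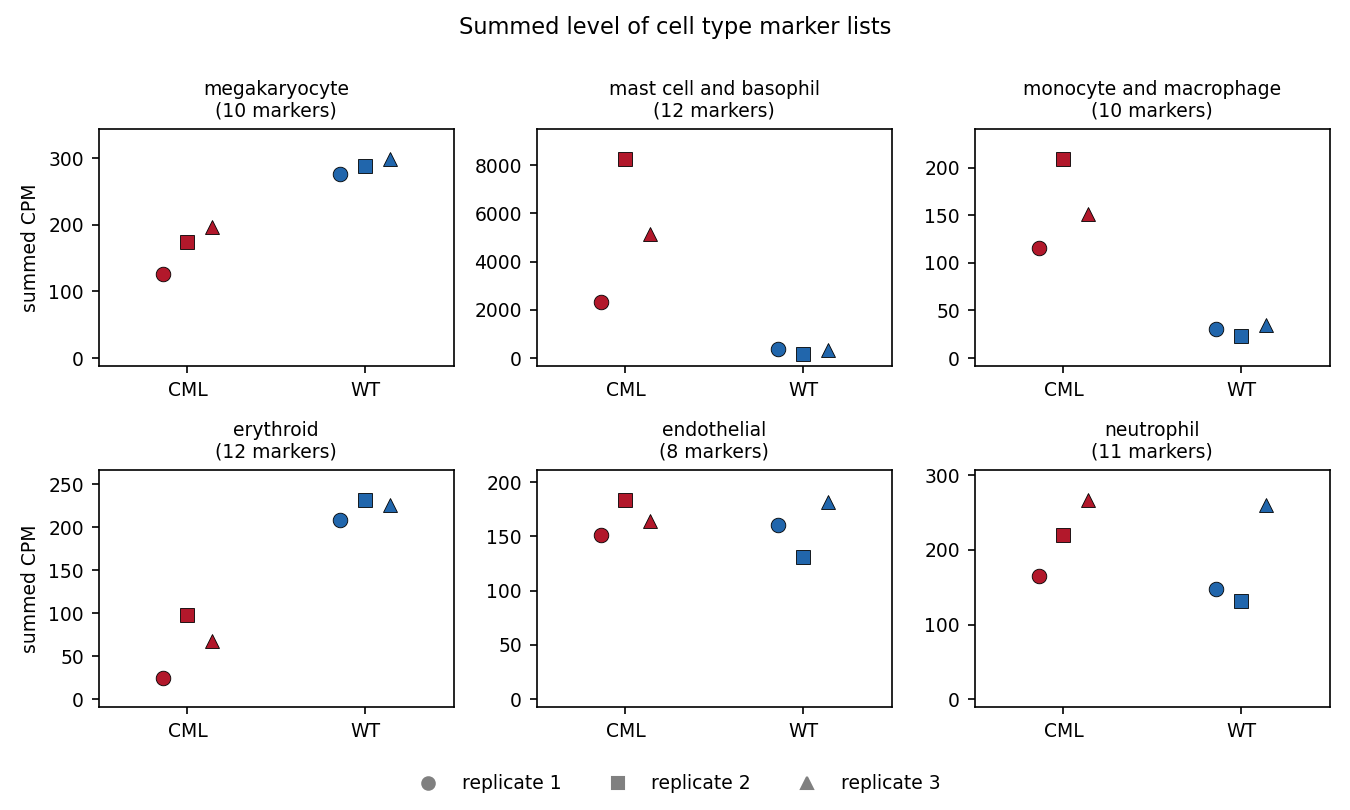
Summed CPM of each cell type marker list (y axis, a separate scale per list) in the 3 CML and 3 WT libraries, with symbols for replicates. Megakaryocyte and erythroid sums lie below WT in every CML library, mast cell and monocyte sums above it, and the endothelial and neutrophil sums overlap. Single markers of a list can go the other way from its sum.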

How the data were processed

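RNA was sequenced in 3 CML and 3 WT libraries made by tagmentation, per the labels' protocols. The deposited table gives estimated counts per gene symbol, in 1 column per library and with no scaling by the authors, and between 30.9% and 32.6% of a library's values above 0 lay more than 0.015 from a whole number. The submitters' processing notes name STAR 2.7.3a, Partek 8.0 and mm10, without roles. No source used here gives the annotation, the strand setting or how shared reads were split, so overlapping and antisense genes are uncertain. Library totals ran from 13323552 to 17926866 estimated counts.

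Counts were rounded and filtered with filterByExpr (minimum count 10), which left 16221 genes. The edgeR 4.0.16 quasi-likelihood test (R 4.3.3, two-sided) was run over that whole table with TMM scaling and group as its term, with Benjamini-Hochberg adjustment over all tested genes and a threshold of 0.05. Standard errors were derived from the F statistic, and intervals are 95%. Alternatives were library totals, RLE size factors, DESeq2 1.42.0, limma-voom (limma 3.58.1), other filters, the replicate number as a block, and leaving out each library. The steps were tested on simulated data. Coordinates, exon lengths and overlaps are from GENCODE M21 (GRCm38), matched by symbol for all 10 genes, and sequences from RefSeq (GRCm38.p6).

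The 10 genes and all lists were chosen with earlier results of these data known. The rule for other named genes took the relatives and NF-E2 partners with at least 1 CPM in a group, up to 4 tested genes with the lowest adjusted p from each other list, and Kit, Ly6a and Slamf1. Some genes that the rule takes are not reported here.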

Additional observations from a re-analysis of the deposited data

How the results depend on the processing

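Over the alternatives run, Thbs1 and Rab27b stayed higher and past the threshold in each, and Pf4 and Plek stayed below 0. The number of these genes called lower was 1 in the main analysis, 0 with library totals, 2 with DESeq2 and 2 with the replicate block, and 0 to 1 when a library was left out. Genes higher in CML in the whole table numbered 1652, and 1011 to 2021 with a library left out. Genes lower in CML numbered 1168, 732 with library totals, and 455 to 2101 with a library left out. Other genes of the programme higher in CML numbered 23, and 14 to 26 with a library left out. The cause of these shifts was not tested.

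Changes of sign were found only in genes that did not pass. Gp5 turned to -0.36 with limma-voom and -0.18 with the replicate block, and ran from -0.32 to 0.54 with a library left out. With a library left out, Treml1 ran from -0.57 to 0.21, Kit from -0.16 to 0.30, Mafg from -0.076 to 0.096, Maff from -0.19 to 0.14, Nfe2l2 from -0.078 to 0.032 and Nfe2l3 from -0.36 to 0.11. With library totals Mafg was 0.095, Maff 0.065 and Nfe2l2 0.066, and with a mean of at least 50 counts Mafg was 0.016.

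Deviations of same-numbered libraries correlated at -0.021, -0.052 and 0.009, and those of libraries with unlike numbers at -0.049 to 0.085. No strong effect shared by replicate number was seen. With 3 libraries per group these values cannot show whether the libraries were prepared as pairs. With the replicate block 1607 genes were higher and 1200 lower, Pf4 passed (adjusted p = 0.0322) and Gata1 did not (0.0618). Treml1 has no value with a mean of at least 50 counts, and Gp1bb has no value in the main analysis. Depth limits Gp1bb, Treml1 and Thbs1 most, with 59, 169 and 460 counts over the 6 libraries.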
